A study of Homo sapiens with 3 samples.

Results

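The microRNA machinery is described here through 10 genes whose products cut microRNA precursors, carry them out of the nucleus and use the finished microRNA to silence messages. They were taken by gene symbol from an Illumina bead array table, which held 18 probes for them among 48803 probes in all, and are 10 of the 25200 gene symbols listed. The array spells 5 of the genes by older symbols: RNASEN is now DROSHA, and EIF2C1, EIF2C2, EIF2C3 and EIF2C4 are now AGO1, AGO2, AGO3 and AGO4. RNA came from LvM3b, a human colon adenocarcinoma line, in 3 groups: cells over-expressing miR-483-5p, cells over-expressing miR-551a, and control cells. The sample itself is labelled miR-483, and the arm is named only by the series text. All groups were grown in DMEM with serum and collected at about 70% confluency. The labels give neither the means and length of over-expression nor whether the control cells carried an empty vector. Each group had 1 array, so every difference is between single cultures, carries no error across replicates and has no test.

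MicroRNAs are transcribed as long precursors that fold into hairpins. In the nucleus DROSHA, an RNase III enzyme, cuts the hairpin free with the help of its RNA-binding partner DGCR8. Exportin 5, encoded by XPO5, carries the hairpin to the cytoplasm, where the RNase III enzyme DICER1, with its partner TARBP2, trims it to a short duplex. An Argonaute protein keeps a single strand of that duplex, and the scaffold protein TNRC6A links Argonaute to the enzymes that shorten poly(A) tails. The seed, the bases near the 5′ end of the microRNA, is what mainly pairs with target messages.

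The hairpin and mature sequence of miR-551a are shown because they are what this machinery handles. Both come from RefSeq, build GRCh38.p14, on the minus strand, and are written 5′ to 3′. Capitals mark the mature strand in the hairpin (chr1:3560695-3560790) and the seed, bases 2 to 8, in the mature microRNA (chr1:3560710-3560730).
MIR551A hairpin: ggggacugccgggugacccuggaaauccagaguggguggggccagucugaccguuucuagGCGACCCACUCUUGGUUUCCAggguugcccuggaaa
hsa-miR-551a: gCGACCCAcucuugguuucca
The hairpin is 96 bases long and the mature strand spans its bases 61 to 81, on the 3′ arm. No probe used here carried the symbol of either microRNA, so the over-expression itself was not measured.

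The median intensity over all probes was 88.0 in miR-483-5p cells, 87.7 in miR-551a cells and 84.9 in control cells, and 13291, 13925 and 13814 probes were detected, at a detection p below 0.01. Of 11 epithelial and intestinal marker genes on the array, 10 were detected in each array, including CDX2, VIL1 and LGALS4, and KRT20 was not. Markers of other cells were mostly undetected: 0 of 3 endothelial and 0 of 3 hepatocyte genes in any array, 1 of 4 leukocyte genes (LYZ) in each, and 1 of 4 fibroblast genes (COL3A1) in the miR-483-5p and control cells. Their part in the results below was not tested.

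Transcripts of 9 of the 10 genes were detected. A set of 12 probes was detected in all 3 arrays and 6 in none of them, so no member differed between arrays in being detected at that cutoff, a detection p below 0.01. At a detection p below 0.05, TNRC6A at ILMN_1739573 was detected in control cells alone. It gave 92.6 in miR-483-5p cells, 87.4 in miR-551a cells and 96.7 in control cells. The exception among the genes was EIF2C4, an Argonaute without slicing activity, whose only probe gave 95 in miR-483-5p cells, 87.3 in miR-551a cells and 76.8 in control cells. These values lie near the inferred background means of 80.6, 79.0 and 76.2, and no ratio is given for them. The other undetected probes belonged to genes that a further probe did detect: 2 of 4 for DICER1, 2 of 3 for TNRC6A and 1 of 2 for RNASEN. Their intensities ran from 79.8 to 93.1 in miR-483-5p cells, from 76.1 to 89.5 in miR-551a cells and from 70.6 to 96.7 in control cells. Levels of different probes cannot be set against each other, so the genes are not ranked by abundance.

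**Figure D1:**
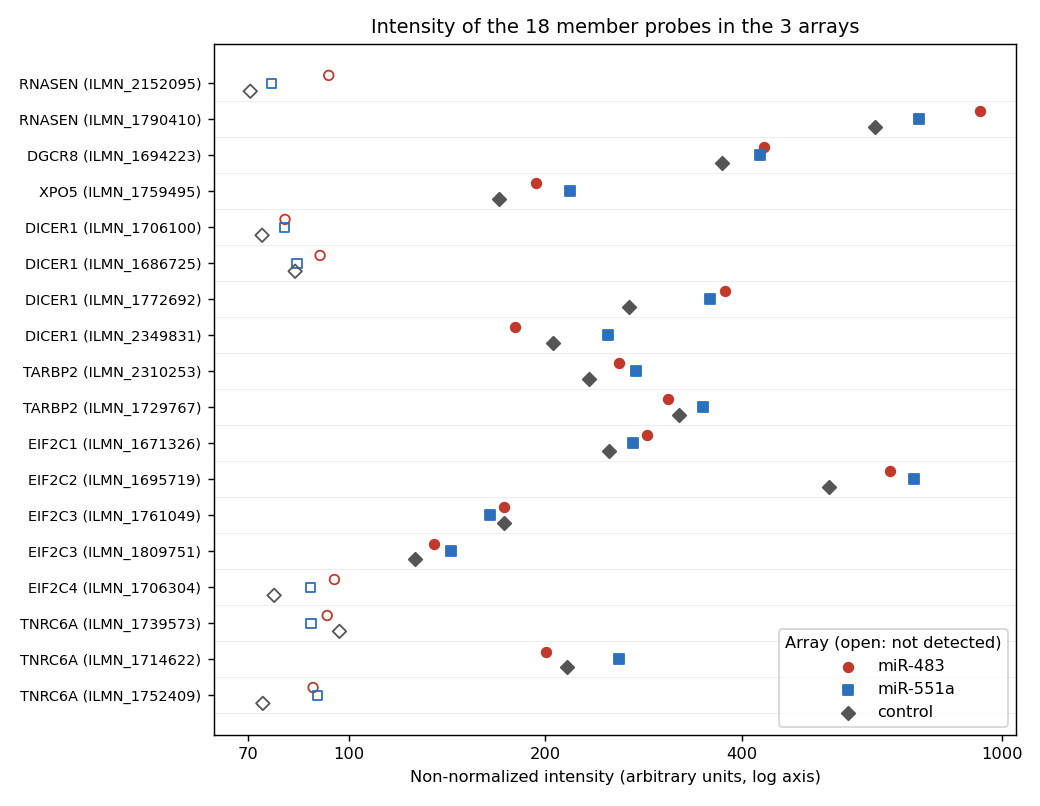
Non-normalized intensity (arbitrary units, log axis) of each of the 18 probes of the microRNA machinery in the miR-483-5p, miR-551a and control arrays, with open symbols for probes not detected (miR-483-5p is labelled miR-483 in the plots). The 6 undetected probes sit below 100. Levels are not normalized here, and the control array had the lowest median over all probes (84.9, against 88.0 for miR-483-5p and 87.7 for miR-551a).

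With the arrays normalized together, no detected probe of the machinery reached 1.5-fold against control in either over-expressing culture. Over all probes, at least 1.5-fold was reached by 8.46% of 13759 probes for miR-483-5p and by 11.9% of 14039 probes for miR-551a. With 12 probes, a count of 0 does not set the machinery apart from those shares. The median difference over the 12 detected probes was 0.19 on the log2 scale for miR-483-5p and 0.24 for miR-551a. Over all probes compared the medians were -0.007 and -0.0043, and the 75th percentiles 0.19 and 0.23. With the probes of a gene averaged, the median over the 9 detected genes was 0.21 for miR-483-5p and 0.14 for miR-551a. With the brightest probe of each gene it was 0.21 and 0.12, so the order of the cultures is not fixed. A positive difference was found at 8 of 12 probes for miR-483-5p and at 11 of 12 for miR-551a, where 48.9% and 49.4% of all probes were positive. Both comparisons contain the same control array, so their likeness is not a separate observation. The arrays compare equal amounts of signal, so a change in total RNA per cell would not be seen.

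**Figure D2:**
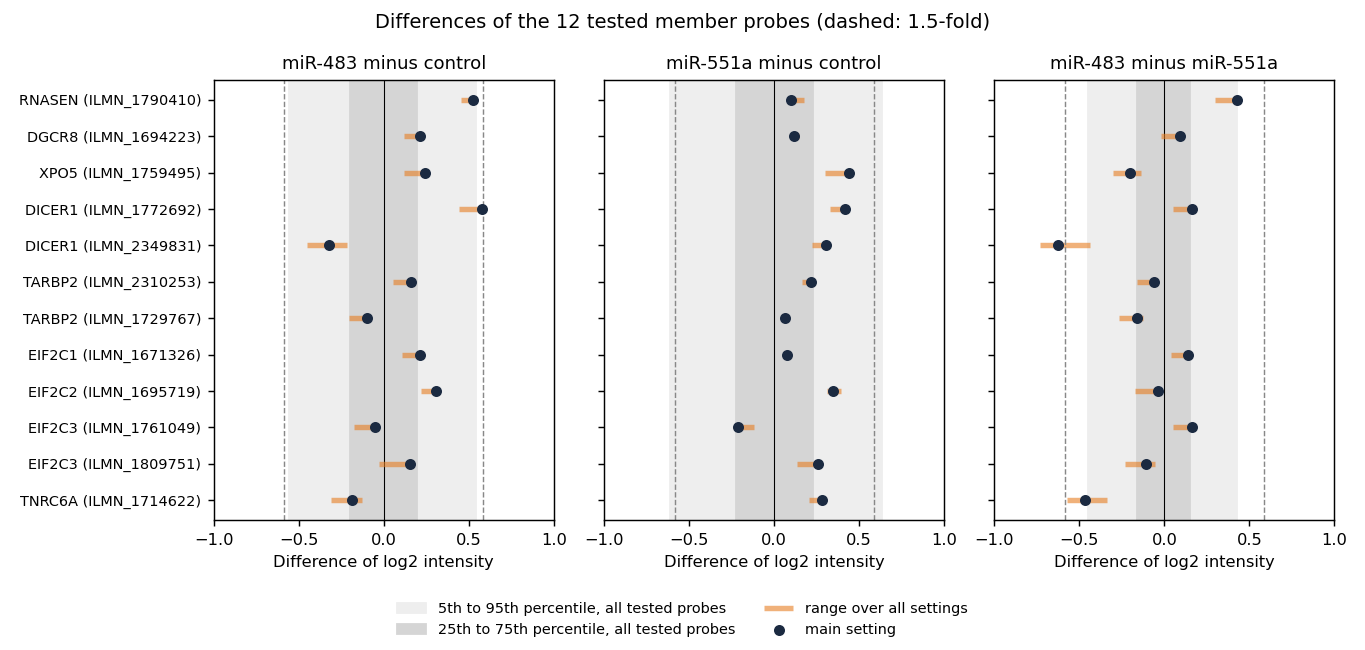
Difference of normalized log2 intensity (x axis) for the 12 detected probes of the microRNA machinery in 3 comparisons between single arrays; points are the values reported, orange bars the range over the main and the other processing settings that kept the probe, grey bands the 25th to 75th and the 5th to 95th percentiles of all probes compared. Dashed lines mark 1.5-fold. Against control no point passes them; DICER1 at ILMN_1772692 (0.58) comes nearest in miR-483-5p cells as normalized here, although RNASEN (0.48 against 0.47) is ahead of it without background correction, and in the direct comparison DICER1 at ILMN_2349831 (-0.63) lies beyond the line.

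Among the nuclear enzymes, RNASEN, the catalytic subunit of the microprocessor, differed most in miR-483-5p cells. Its detected probe gave 926.1 in miR-483-5p cells, 746.3 in miR-551a cells and 640.6 in control cells. That is a normalized difference from control of 0.52 on the log2 scale (1.44-fold higher) for miR-483-5p and 0.10 (1.07-fold) for miR-551a. Of all probes compared, 5.56% were higher still in miR-483-5p cells, and 38.0% in miR-551a cells. Set directly against the miR-551a cells, the miR-483-5p cells were 0.42 higher, a difference that 5.00% of probes exceeded. DGCR8, the double-stranded RNA-binding partner of RNASEN, was closer to control than RNASEN in miR-483-5p cells. In miR-551a cells the order of these genes changed with the setting. Under median centring DGCR8 was 0.14 and RNASEN 0.16 above control there. DGCR8 gave 432.7 in miR-483-5p cells, 426.4 in miR-551a cells and 373.2 in control cells, or 0.21 and 0.12 above control on the log2 scale. The over-expressing cultures differed by 0.09 for DGCR8, with a value of -0.02 when arrays were centred on their medians, so no order is read between them.

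XPO5, the export receptor that binds hairpin precursors in the nucleus, had the largest difference of the machinery in miR-551a cells as normalized here. Its probe gave 193.4 in miR-483-5p cells, 217.8 in miR-551a cells and 169.7 in control cells. For miR-551a this is 0.44 above control (1.36-fold), which 11.0% of all probes exceeded, and for miR-483-5p 0.24 (1.18-fold), which 20.7% exceeded. Both over-expressing cultures were above control at this probe, and the miR-483-5p cells were 0.20 below the miR-551a cells. Over all settings the miR-551a difference ran from 0.30 to 0.44 for XPO5, overlapping the 0.33 to 0.42 of DICER1 at ILMN_1772692 and the 0.31 to 0.39 of EIF2C2, so the order of these members is not fixed.

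DICER1 was the member whose probes lay furthest apart in miR-483-5p cells. At ILMN_1772692 the intensity was 377.4 in miR-483-5p cells, 356.9 in miR-551a cells and 268.1 in control cells. Normalized, this probe was 0.58 above control on the log2 scale for miR-483-5p (1.49-fold, exceeded by 4.13% of probes) and 0.42 for miR-551a (1.33-fold, exceeded by 12.1%). At ILMN_2349831 the order was different, with 179.7 in miR-483-5p cells, 249.2 in miR-551a cells and 205.6 in control cells. Here the miR-483-5p cells were lowest, 0.32 below control (1.25-fold lower), and the miR-551a cells highest, 0.31 above control (1.24-fold higher). The probes thus lay 0.90 apart on the log2 scale in miR-483-5p cells and 0.11 apart in miR-551a cells. A gap of that width or wider was found in 3.49% of 2406 genes with several detected probes for miR-483-5p, where the median gap was 0.24. For miR-551a a gap as wide or wider was found in 76.8% of 2476 such genes.

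In the direct comparison, DICER1 at ILMN_2349831 was 0.63 lower in miR-483-5p cells than in miR-551a cells (1.55-fold lower). It was the single probe of the machinery past 1.5-fold in that direction, where 2.41% of 13749 probes were at least 1.5-fold lower, and 1.89% of probes were lower still. The other DICER1 probe was 0.16 higher in miR-483-5p cells. The 1.5-fold mark was passed only at some settings: the difference at ILMN_2349831 ranged from -0.73 to -0.44 over the main setting and every other background correction, scaling or detection rule that kept this dim probe. Which DICER1 transcripts each probe reads is not given in the files. The RefSeq table lists 5 start windows for DICER1 against 1 for each of RNASEN, DGCR8, XPO5, EIF2C1, EIF2C3, EIF2C4 and TNRC6A, and 3 for TARBP2. Windows of EIF2C2 were not counted.

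TARBP2, the RNA-binding partner that helps DICER1 load Argonaute, differed little at both of its probes. At ILMN_2310253 it gave 259.2 in miR-483-5p cells, 275.1 in miR-551a cells and 233.2 in control cells, or 0.16 and 0.22 above control. At ILMN_1729767 it gave 308.4 in miR-483-5p cells, 348.3 in miR-551a cells and 320.0 in control cells. The second probe was 0.10 below control for miR-483-5p and 0.06 above it for miR-551a, so the probes did not share a direction in miR-483-5p cells.

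Argonautes bind the finished microRNA, and EIF2C2 is the family member best known for cutting perfectly paired targets. EIF2C2 gave 674.6 in miR-483-5p cells, 733.1 in miR-551a cells and 544.7 in control cells. Normalized, it was 0.31 above control for miR-483-5p (1.24-fold) and 0.35 for miR-551a (1.27-fold), and 15.5% and 16% of all probes were higher. It was the Argonaute with the largest difference from control in both over-expressing cultures, which differed from each other by -0.04. EIF2C1 gave 285.7 in miR-483-5p cells, 272.5 in miR-551a cells and 249.9 in control cells, 0.21 and 0.07 above control. The probes of EIF2C3 differed in direction. One of them, ILMN_1761049, gave 172.5 in miR-483-5p cells, 164.4 in miR-551a cells and 172.6 in control cells. After normalization these were 0.05 and 0.21 lower than control (-0.05 and -0.21), and the miR-551a value was the lowest difference of the machinery in that array. At ILMN_1809751, EIF2C3 gave 134.9 in miR-483-5p cells, 143.4 in miR-551a cells and 126.3 in control cells. This probe was 0.15 and 0.26 above control, although the miR-483-5p value turned to -0.03 when arrays were centred on their medians. EIF2C4, EIF2C1 and EIF2C3 lie next to each other on chromosome 1 in the RefSeq gene table. Of the 2 that were detected, EIF2C1 was above control in both over-expressing cultures, and EIF2C3 had differences of both signs.

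TNRC6A, the GW182-family scaffold that recruits deadenylases to Argonaute, lay on opposite sides of control in the over-expressing cultures at its only detected probe. Its detected probe, ILMN_1714622, gave 200.5 in miR-483-5p cells, 259.5 in miR-551a cells and 215.8 in control cells. The normalized difference from control was -0.19 for miR-483-5p (1.14-fold lower) and 0.28 for miR-551a (1.22-fold higher). Directly compared, the miR-483-5p cells were 0.47 lower than the miR-551a cells, and 4.52% of probes were lower still. A further GW182-family gene, TNRC6B, was detected at 1 of 3 probes, which differed from control by 0.13 for miR-483-5p and by -0.01 for miR-551a, and TNRC6C was not detected.

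Between the over-expressing cultures, without the control, the machinery had differences of both signs. The median difference, miR-483-5p minus miR-551a, was -0.05 over the 12 probes and -0.0026 over all 13749 probes. Positive differences were found at 5 of the 12 probes and at 49.4% of all probes, so this count does not set the machinery apart. RNASEN was the most positive at 0.42, and the most negative were DICER1 at ILMN_2349831 (-0.63) and TNRC6A (-0.47). In all, 4.31% of probes differed by at least 1.5-fold in this comparison.

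Start windows of 2 members are printed, RNASEN because it differed most from control among genes with a single detected probe in miR-483-5p cells, and XPO5 because it did so in miR-551a cells, both as normalized here. They run from 250 bases before to 50 after the annotated start, come from RefSeq in build GRCh38.p14, lie on the minus strand and are written 5′ to 3′. In the RNASEN window, listed under DROSHA (chr5:31532044-31532343), capitals mark the motif CCAAT on either strand, and in the XPO5 window (chr6:43575989-43576288) they mark GGGCGG on either strand, where the 2 matches overlap by a base.
DROSHA: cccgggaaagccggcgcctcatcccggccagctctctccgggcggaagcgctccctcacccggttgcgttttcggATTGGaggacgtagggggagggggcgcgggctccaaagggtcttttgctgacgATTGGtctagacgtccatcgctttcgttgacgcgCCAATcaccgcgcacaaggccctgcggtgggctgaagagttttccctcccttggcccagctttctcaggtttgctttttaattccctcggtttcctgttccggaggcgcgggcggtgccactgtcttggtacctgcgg
XPO5: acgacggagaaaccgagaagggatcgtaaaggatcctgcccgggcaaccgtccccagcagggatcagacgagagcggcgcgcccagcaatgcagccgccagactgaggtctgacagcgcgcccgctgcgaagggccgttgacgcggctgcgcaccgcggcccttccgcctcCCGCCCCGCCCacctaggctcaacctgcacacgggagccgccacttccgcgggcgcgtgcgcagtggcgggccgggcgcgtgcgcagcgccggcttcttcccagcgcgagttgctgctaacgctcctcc
The RNASEN window held CCAAT 3 times and the XPO5 window did not hold it. GGGCGG was found 2 times in each of these windows, and it is not marked in that of RNASEN. Among the 15 windows of 9 members, 8 held CCAAT and 11 held GGGCGG, beside 34.6% and 44.9% of all 34943 windows. EIF2C2 was not included, and DICER1 gave 5 of the 15 windows and TARBP2 3. By gene, 6 of the 9 held CCAAT and 8 held GGGCGG in any window. The E-box CACGTG was in 0 of the 15 and in 7.23% of all windows. These matches describe the letters in the windows and are not binding sites measured here.

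A wider list of genes that work with the machinery was read the same way, 67 genes with 104 probes. In miR-483-5p cells 3 of 70 detected probes were at least 1.5-fold higher than control and 2 at least 1.5-fold lower. In miR-551a cells 6 of 72 were higher and 3 lower. Those shares, 7.14% and 12.5%, lie near the 8.46% and 11.9% of all probes. The medians were 0.03 and 0.02 on the log2 scale.

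Genes that assist DICER1 and Argonaute loading were the group with the highest medians, 0.23 for miR-483-5p and 0.29 for miR-551a over 10 probes of 7 genes. FKBP4, a cochaperone of HSP90, gave 665.9 in miR-483-5p cells, 806.0 in miR-551a cells and 439.4 in control cells, 1.55-fold and 1.80-fold higher than control. HSP90AA1, a chaperone that holds Argonaute open for loading, was 1.51-fold higher in both at 1 of its 3 probes as normalized here. That probe gave 29105.2 in miR-483-5p cells, 28459.0 in miR-551a cells and 19881.2 in control cells. Quantile normalization gives equal ranks the same level, so the equal folds are not a measured agreement. Over the settings both differences came down to 0.44 on the log2 scale, short of 1.5-fold. The other HSP90AA1 probes differed by 0.29 and 0.30 for miR-483-5p and by 0.47 and 0.02 for miR-551a. PRKRA, a further partner of DICER1, differed by 0.18 for miR-483-5p and by -0.03 for miR-551a.

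Among proteins that bind to microRNA precursors beside the microprocessor, HNRNPA1, an RNA-binding splicing factor, had the largest difference of the wider list in miR-551a cells. Its brighter probe gave 363.6 in miR-483-5p cells, 555.4 in miR-551a cells and 280.3 in control cells. It was 2.09-fold higher than control for miR-551a, past 2-fold as were 1.94% of all probes either way, and 1.35-fold higher for miR-483-5p. Directly compared, the miR-483-5p cells were 1.55-fold lower than the miR-551a cells, a difference of -0.76 to -0.54 over the settings, some of them short of 1.5-fold. A dim HNRNPA1 probe was detected in miR-551a cells alone and as normalized here was at least 1.61-fold higher there than in control, a bound for this normalization, since the measured difference came down to 0.40 on the log2 scale at another setting. The group's medians were -0.03 for miR-483-5p and 0.17 for miR-551a.

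Enzymes that tail or degrade small RNAs had the lowest medians among the groups with several probes, -0.22 for miR-483-5p and -0.18 for miR-551a over 10 probes. ZCCHC11, a terminal uridylyltransferase now named TUT4, was 1.67-fold lower for miR-483-5p at 1 probe, with 148.0 in miR-483-5p cells, 182.0 in miR-551a cells and 201.5 in control cells. Its other detected probe was -0.32 and -0.41 from control in miR-483-5p and miR-551a cells. The exonuclease XRN1 was 1.51-fold lower for miR-551a and -0.40 for miR-483-5p. THEX1, an exonuclease now named ERI1, was not detected in miR-483-5p cells and as normalized here was at least 1.43-fold lower there than in miR-551a cells. That bound too is for this normalization, since the measured difference ran from -0.85 to -0.36 on the log2 scale over the settings.

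Silencing effectors had medians near 0, -0.03 and -0.09. EIF4E2, a cap-binding protein that represses translation, gave 343.5 in miR-483-5p cells, 396.5 in miR-551a cells and 222.0 in control cells, 1.72-fold and 1.95-fold higher than control. CNOT8, a deadenylase of the CCR4-NOT complex, was 1.57-fold lower for miR-551a at 1 probe, while its other probe differed by -0.16. The LIM protein JUB, detected in control alone, was as normalized here lower by at least 1.14-fold for miR-483-5p and by at least 1.26-fold for miR-551a (measured differences of -0.98 to -0.36 and of -0.66 to -0.27 over the settings), and the helicase DDX6, detected for miR-551a alone, was at least 1.15-fold higher there than in control. JUB and DDX6 therefore count as past 1.5-fold only by their measured dim values. Of the germline Argonautes, only PIWIL1 was detected, with 653.1 in miR-483-5p cells, 716.2 in miR-551a cells and 910.6 in control cells and differences of -0.58 for miR-483-5p and -0.52 for miR-551a; it is named after its values were seen. The 3 genes for export, RAN, XPO1 and NUP153, had no probe past 1.5-fold. Across all settings the lowest differences for miR-551a were 0.89 for HNRNPA1 at its brighter probe, 0.76 for FKBP4 and 0.75 for EIF4E2, each still past 1.5-fold, whereas for miR-483-5p FKBP4 came down to 0.55 and EIF4E2 to 0.58, just short of it. The other differences past 1.5-fold from control in these groups also fell short of it at 1 or more settings.

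**Figure D3:**
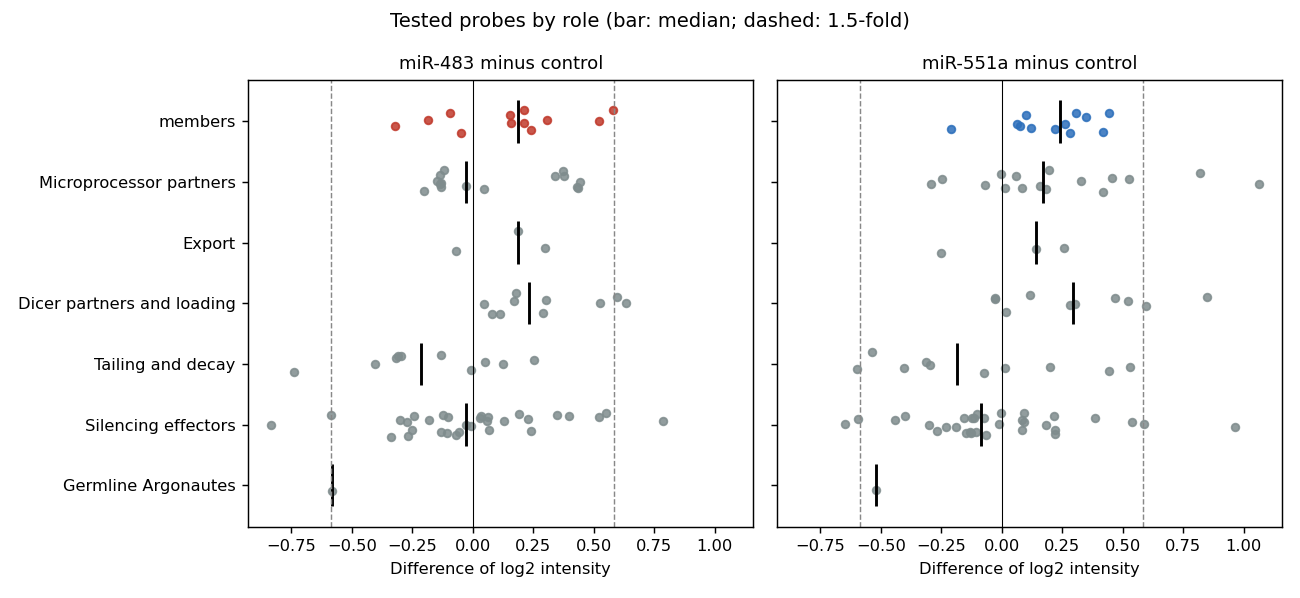
Difference of normalized log2 intensity from control (x axis) for each detected probe, grouped by role, with the 12 probes of the machinery in colour, the wider list in grey, medians as bars and 1.5-fold as dashed lines. The medians of the machinery are 0.19 and 0.24, those of Dicer partners and loading 0.23 and 0.29, and those of tailing and decay -0.22 and -0.18, for miR-483-5p and miR-551a.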

How the data were processed

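Illumina bead arrays were read from 3 samples, 1 per group. The authors deposited non-normalized intensity values, 1 column per array, and beside each a column headed Detection. Its values, fractions between 0 and 1, were taken as a detection score and read here as 1 minus a detection p. In the authors' deposited normalized intensity table the column named for miR-483 is 0.934 times the non-normalized miR-551a column at every probe. That column was not used; the scanner software is not given in the sources used here.

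Values were computed with limma 3.58.1 in R 4.3.3: background correction from the detection scores (neqc), offset 16, quantile normalization, log2. A probe was compared if it had a gene symbol and a score above 0.99 in at least 1 of the 2 arrays. For a probe detected in just 1 of the 2 arrays, the ratio is a bound ("at least"), taken against the higher of the undetected value and the dimmest detected level there. With 1 array per group nothing was tested; the number of arrays limits the precision. The normalization was tested on simulated data, with changes of at least 2-fold in bright probes. That test does not cover differences as small as those of the machinery. All 10 gene names matched RefSeq, 5 by older symbol. Every member gene was named, with the values of each detected probe and the range of the undetected ones, and of the wider list each gene past 1.5-fold. Members and lists were chosen with earlier results of these data known. Alternatives were other background corrections, scalings, offsets and detection filters.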

Additional observations from a re-analysis of the deposited data

Results flagged for a closer look

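At 3 probes the over-expressing cells lay on opposite sides of control. The share of all probes that did so was not computed, so this count does not set the machinery apart. None of these differences was tested, since each group is 1 array. DICER1 at ILMN_2349831 differed from control by -0.32 for miR-483-5p and by 0.31 for miR-551a. TNRC6A at ILMN_1714622 differed by -0.19 and 0.28 in the same order, and TARBP2 at ILMN_1729767 by -0.10 and 0.064. The 25th to 75th percentiles of all probes were -0.20 to 0.19 for miR-483-5p and -0.23 to 0.23 for miR-551a. Both TARBP2 values and the TNRC6A value for miR-483-5p lay within them, and the others outside.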

How the results depend on the processing

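No paired analysis was possible because each group has 1 array, and leaving out an array leaves no comparison. A log2 difference was said to move when it changed by over 0.1, and a count when it changed by over 1.5 times. Of 315 member probe differences under alternatives, 275 stayed within 0.1 and 40 moved. That count overstates stability, since the detection and brightness filters leave the difference of a kept probe unchanged by construction. The values from the authors' normalized table for miR-551a also repeat those of median scaling. No member probe reached 1.5-fold against control at any of the 9 other settings. The median over the members' probes was 0.080 for miR-483-5p under median centring, which shifted the median of all probes to -0.11, so the machinery stood 0.19 above it, as at the main setting. Among brighter probes, where 5 were left, it was 0.31 for miR-483-5p and 0.12 for miR-551a. For miR-483-5p minus miR-551a it was -0.17 under median centring and 0.094 among brighter probes, and the median over genes became 0.094 with the brightest probe of each. In that comparison 0 member probes were at least 1.5-fold lower without background correction, with normexp, under median scaling, among brighter probes and with offset 50.

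Counts of all probes moved most. At 1.5-fold either way for miR-483-5p, 1164 probes became 301 without background correction, 354 with normexp, 292 under median scaling, 1859 without a detection filter, 696 detected in both arrays, 1812 at a detection p below 0.05, 310 among brighter probes and 454 with offset 50. At 2-fold, 174 became 34, 38, 34, 86 (both arrays), 39 (brighter) and 45 (offset 50). For miR-551a, 1668 became 567 without background correction, 668 with normexp, 622 under median scaling, 569 among brighter probes and 816 with offset 50, and at 2-fold 272 became 80, 92, 85, 82 and 106, and 150 in both arrays. For miR-483-5p minus miR-551a, 593 became 67, 85, 78, 1225 (no filter), 258 (both arrays), 1186 (p below 0.05), 57 (brighter) and 131 (offset 50), and at 2-fold 67 became 6, 7, 9, 17 (both arrays), 7 (brighter) and 9 (offset 50). Of 1.5-fold calls for miR-483-5p 47.6% were higher, and 21.9% under median centring; for miR-551a 51.2%, and 65.8% under median scaling; for miR-483-5p minus miR-551a 44.0%, and 20.2% under median centring and 21.8% under median scaling. The cause of these shifts was not tested.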
